A study of Mus musculus with 6 samples.

Results

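Top1mt encodes the topoisomerase I of mitochondria, and with 9 other nuclear genes it serves the copying, packaging and reading of mitochondrial DNA. These 10 genes, of 52740 gene rows in the count table, are Top1mt, Twnk, Polg, Polg2, Ssbp1, Tfam, Polrmt, Tfb1m, Tfb2m and Lrpprc. They were matched by gene identifier without its version. Top1mt was chosen on its measured difference between Cox7a2l siRNA and control siRNA, and the other 9 were added by function with that comparison already known. The fold changes of all 10 in that comparison are therefore a description, with no test, and they support nothing further.

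RNA came from C2C12 cells, an established mouse myoblast line, grown with 10% fetal bovine serum. The control group held 3 libraries of cells given a random control siRNA (siCTRL), and the other group 3 libraries of cells given an siRNA against Cox7a2l (siCOX7A2L). Cox7a2l encodes an inner-membrane protein that joins respiratory complexes III and IV. All 6 libraries were made from total RNA after ribosomal RNA depletion, and replicates are numbered 1 to 3 in both groups. Whether replicates came from separate cultures is not stated in the labels, and p-values then reflect the spread among these libraries alone, possibly a technical one. In bulk RNA, fewer cells of a kind and less RNA per cell cannot be told apart.

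Mitochondrial DNA is a small circular genome kept in many copies per cell and packed into nucleoids by the protein TFAM. POLRMT transcribes it with TFAM and TFB2M, and also makes the primers from which replication starts. The helicase TWINKLE (Twnk) opens the duplex, SSBP1 coats the single strands, and DNA polymerase gamma, a catalytic subunit (Polg) with an accessory subunit (Polg2), copies them. TOP1MT relaxes the supercoils that both processes leave. TFB1M methylates the small ribosomal RNA of mitochondria, and LRPPRC keeps mitochondrial messages stable.

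Libraries held 9890218 to 17077826 estimated counts, with the fewest in Cox7a2l siRNA replicate 3. Cox7a2l itself stood at 58.0, 59.5 and 58.9 CPM in the 3 control libraries and at 6.72, 5.90 and 3.59 CPM in the 3 given its siRNA. CPM are counts scaled to library size after TMM normalisation. Libraries numbered 3 were unlike the others in both groups. In them the 13 protein-coding genes of mitochondrial DNA took 2.78% and 1.61% of the counts, against 0.589% to 0.616% in the other libraries. One gene row without a symbol took 5.81% to 6.59% of the counts in the control group and 6.97% to 11.1% after Cox7a2l siRNA. Fits without the replicate 3 pair, and on TPM without that row, are given below. What lies behind either difference was not tested. Of 7 myoblast markers all 7 passed the expression filter, and their summed level was 1757 to 2167 CPM against 1622 to 2848 CPM, control against Cox7a2l siRNA. Sums of markers are scaled to library size alone. Of 5 leukocyte markers and 4 endothelial markers 1 and 0 passed the filter, and Adgre1 had no count in any library. Of 5 adipocyte markers 2 passed it. Fibroblast markers summed to 296 to 783 CPM against 234 to 755 CPM, with Tcf21 at 0. Markers of differentiated muscle summed to 8.73 to 137 CPM against 6.94 to 292 CPM. In both lists 1 gene rose in the edgeR block fit, Dcn of 3 and Acta1 of 5 tested. In that fit 0.726% of 15022 tested genes passed in either direction. Both genes were highest in replicate 3 of each group. There Dcn was at 11.7 CPM (control) and 45.1 CPM (Cox7a2l siRNA), and Acta1 at 24.2 and 60.3 CPM. In the other libraries Dcn was at 1.85 to 9.89 CPM and Acta1 at 1.03 to 3.42 CPM. The part of these markers in the results was not tested.

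Reference transcript sequences of Top1mt were compared with those of its nuclear paralog Top1, because both genes encode type IB topoisomerases. Reads themselves were not examined. Top1mt lies on chromosome 15. The coding sequences of their main transcripts in GENCODE M21 hold 1779 bases (Top1mt) and 2301 bases (Top1). The most alike ungapped stretch of 90 bases is shown for both, in the direction of the message, with capitals at the 15 positions where they differ.
Top1mt, coding bases 912 to 1001: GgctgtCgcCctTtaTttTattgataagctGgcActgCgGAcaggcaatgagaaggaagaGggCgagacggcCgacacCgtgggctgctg
Top1, coding bases 1431 to 1520: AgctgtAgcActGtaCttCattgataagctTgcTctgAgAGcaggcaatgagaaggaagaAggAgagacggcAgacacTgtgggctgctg
The longest run without a difference in this stretch was 19 bases. Of 2041 words of 31 bases in Top1mt transcripts, 3.28% also occurred in another gene. That gene was Gm15945, which overlaps Top1mt on the other strand and had no count in any library.

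Promoters of 6 of the other 9 members carried a common short word. RefSeq promoters (build GRCm38.p6) were at hand for 9 of the 10 genes, all but Top1mt, and the 250 bases before each start were searched on both strands. The ETS word CCGGAAG, bound by GABPA and its relatives, occurred in 6 of the 10 promoters listed for these 9 genes, against 8.98% of 21262 promoters of protein-coding genes. Twnk has 2 listed promoters, 1 with the ETS word and the other without it. The NRF1 core GCGCATGC was found for Polrmt alone, against 2.93%, and the ERR word AAGGTCA for Twnk alone, in its other promoter, against 3.59%. The YY1 word AAGATGG and the E-box CACGTG were in none of the 10, against 4.13% and 6.63%. No word contained another, and members are too few for these shares to say more. Median GC content was 58.8% in the 10 member windows. It was 52.4% over all 32851 promoters, a wider set than the protein-coding promoters used above. The part of GC content in the matches was not tested. The 80 bases before the start are shown 5′ to 3′ for the 6 genes with the ETS word, which is in capitals.
Tfam, chr10:71238045-71238124, minus strand: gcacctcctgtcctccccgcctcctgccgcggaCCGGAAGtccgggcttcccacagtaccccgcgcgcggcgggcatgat
Ssbp1, chr6:40471388-40471467, plus strand: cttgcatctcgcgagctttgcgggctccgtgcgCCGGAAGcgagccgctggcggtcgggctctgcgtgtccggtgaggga
Polg, chr7:79466274-79466353, minus strand: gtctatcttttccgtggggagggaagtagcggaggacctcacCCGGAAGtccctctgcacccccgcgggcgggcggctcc
Polrmt, chr10:79746582-79746661, minus strand: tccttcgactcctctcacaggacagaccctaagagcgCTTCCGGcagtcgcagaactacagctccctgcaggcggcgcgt
Polg2, chr11:106779538-106779617, minus strand: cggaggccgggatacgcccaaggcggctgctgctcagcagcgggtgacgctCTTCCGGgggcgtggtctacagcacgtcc
Twnk, chr19:45006478-45006557, plus strand: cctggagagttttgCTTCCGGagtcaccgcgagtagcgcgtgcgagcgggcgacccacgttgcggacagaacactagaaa
In these stretches the word began 29 to 66 bases before the annotated start, and the same Twnk promoter held it once more, 110 bases before the start. Lrpprc, Tfb1m and Tfb2m had no exact match in their windows, which says only that these letters were not there. The matches are letters in a reference, not measured binding sites.

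Top1mt was the member with the largest difference between the groups. Its estimated counts were 72, 74 and 105 in the control libraries, in the order of replicates 1 to 3 that is kept from here on, against 151, 151 and 145 with Cox7a2l siRNA. On the CPM scale these were 4.75, 5.09 and 6.09 against 9.57, 10.6 and 16.3. The lowest Cox7a2l siRNA library thus lay above the highest control library, and in both groups replicate 3 was the highest. The group means were 5.31 ± 0.693 and 12.2 ± 3.61 CPM (SD, n = 3 each). With the replicate number as a block the level after Cox7a2l siRNA was 2.24 times the control level (log2 fold change 1.17 ± 0.20, with ± for the standard error wherever a log2 fold change is given). The 3 replicate pairs gave log2 differences of 0.99, 1.04 and 1.40.

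**Figure D1:**
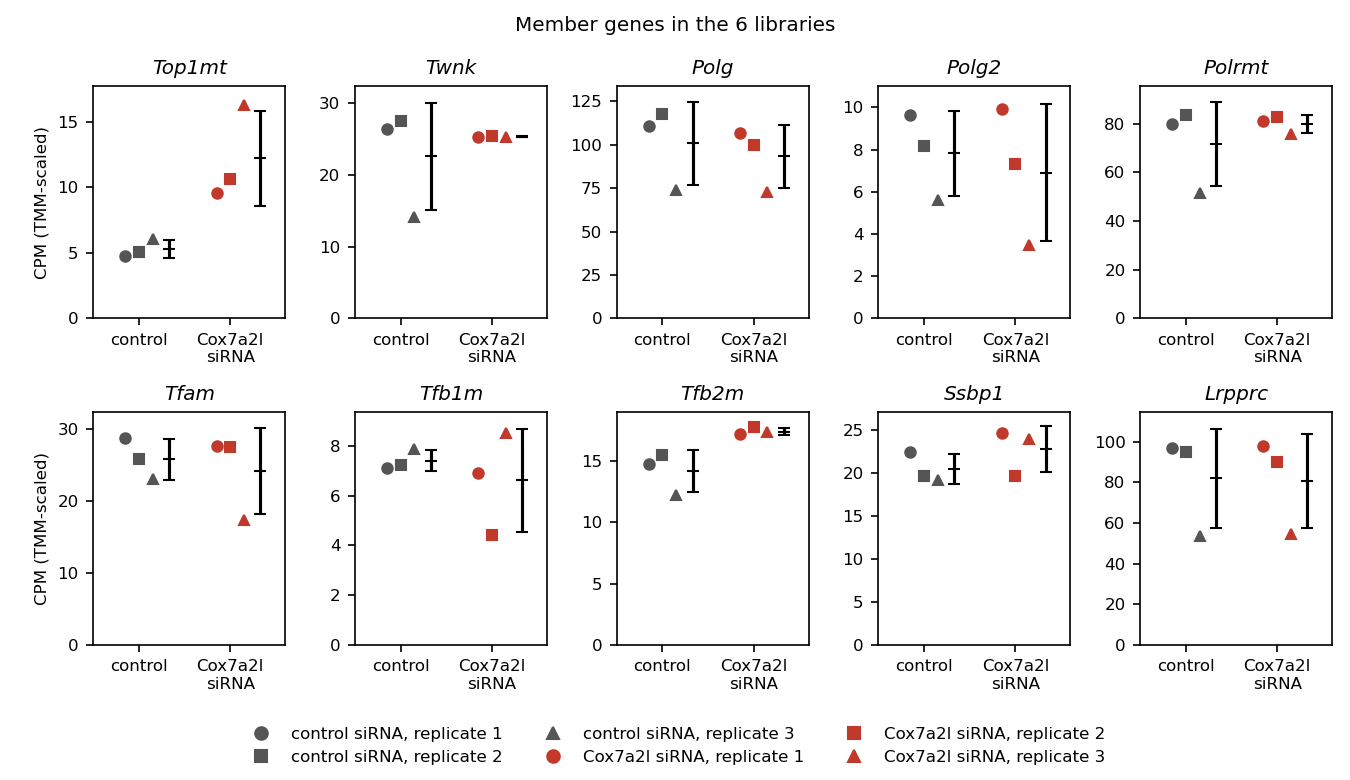
TMM-scaled CPM of the 10 members in each library, with the control siRNA in grey and the Cox7a2l siRNA in red, and a symbol for each replicate number. Bars are the mean ± SD of 3 libraries. The Top1mt libraries lie at 4.75 to 6.09 CPM in the control group and 9.57 to 16.3 CPM after Cox7a2l siRNA, while the values of 8 members overlap between the groups.

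Counting by transcript length gave a smaller Top1mt difference. Deposited TPM, which divide by transcript length, were 2.71, 2.63 and 3.69 in the control group and 4.67, 4.68 and 5.59 after Cox7a2l siRNA, again without overlap. The gene row without a symbol took 36.9% to 42.5% of TPM in the control group and 44.2% to 53.6% after Cox7a2l siRNA, which lowers the TPM of every other gene. With that row left out and TPM rescaled, Top1mt was at 4.71, 4.50 and 5.85 against 8.38, 8.71 and 12, a ratio of group means of 1.93. Counts per TPM unit, relative to control replicate 1, were divided by the median of that ratio over 1660 genes with a single annotated transcript. The result is the relative mean length of the transcripts to which reads were assigned. For Top1mt this was 1.00, 1.10 and 0.98 in the control group and 1.16, 1.18 and 1.09 after Cox7a2l siRNA. The part of transcript length in the Top1mt difference was not tested.

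Of the 10 members 1, Top1mt, passed an adjusted p of 0.05 in the edgeR fit with the replicate block, in which 0.726% of 15022 tested genes passed. Nothing is read from that count, since Top1mt was chosen for it. Top1mt did not pass without the block, in the TPM fits or without the replicate 3 pair. The authors' deposited table lists a log2 fold change of 1.16 for Top1mt and places it among the genes that went up, with the other 9 as neither up nor down. In that table the other 9 lay between -0.24 (Polg2) and 0.30 (Tfb2m).

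Among the transcription factors of mitochondria, Tfb2m, the promoter-melting partner of POLRMT, was at 14.8, 15.5 and 12.2 CPM in the control group. With Cox7a2l siRNA it was at 17.2, 17.8 and 17.4 CPM. The groups did not overlap, but the log2 fold change was only 0.30 ± 0.16. Groups with all Cox7a2l siRNA libraries above all control libraries occurred for 2 of the 10 members, Top1mt and Tfb2m, and for 7.96% of all tested genes. On deposited TPM Tfb2m overlapped between the groups, at 5.13 to 7.88 in the control group and 4.63 to 10.9 after Cox7a2l siRNA. Of its words of 31 bases 36.4% also occur in other genes, most of them in Gm1818, which had no count in any library.

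Polrmt, the mitochondrial RNA polymerase, was at 79.9, 83.4 and 51.6 CPM in the control group and at 81.3, 82.8 and 75.8 CPM after Cox7a2l siRNA. Its groups overlapped, and only control replicate 3 was low. The pair values were 0.02, -0.01 and 0.55, and the block fit gave a log2 fold change of 0.19 ± 0.14. Tfam, the packaging protein and transcription factor, was at 28.7, 25.9 and 23.0 CPM against 27.6, 27.5 and 17.3 CPM, a log2 fold change of -0.12 ± 0.16. Tfb1m, the ribosomal RNA methyltransferase, was at 7.13, 7.23 and 7.88 CPM against 6.91, 4.42 and 8.53 CPM. Its libraries after Cox7a2l siRNA lay on both sides of all 3 controls, and its log2 fold change was -0.20 ± 0.23.

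Differences of the replication genes had both signs. Twnk, the helicase, was at 26.4, 27.5 and 14.1 CPM in the control group and at 25.3, 25.4 and 25.3 CPM after Cox7a2l siRNA. Its pair values were -0.06, -0.11 and 0.84 and the log2 fold change was 0.21 ± 0.20. Without the replicate 3 pair it was -0.09, and control replicate 3 was the one low library. Polg, the catalytic subunit of polymerase gamma, was at 111, 118 and 73.7 CPM against 107, 100 and 72.8 CPM, with each pair value between -0.24 and -0.02 and a log2 fold change of -0.10 ± 0.12. Its accessory subunit Polg2 was lower in replicate 3 of both groups, at 9.64, 8.19 and 5.62 CPM against 9.95, 7.30 and 3.48 CPM, a log2 fold change of -0.23 ± 0.22. Ssbp1, the single-strand binding protein, was at 22.5, 19.7 and 19.2 CPM against 24.7, 19.7 and 24.0 CPM, a log2 fold change of 0.15 ± 0.15.

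Lrpprc, which binds mitochondrial messages, had the smallest difference of the 10. It was at 96.8, 95.0 and 53.7 CPM in the control group and at 97.7, 89.9 and 54.4 CPM after Cox7a2l siRNA. Replicate 3 was low to the same degree in both groups, and the log2 fold change was -0.02 ± 0.12. The 9 members other than Top1mt had a median log2 fold change of -0.02, between -0.23 and 0.30, beside a median of 0.01 over all 15022 genes. Higher values in all 3 pairs were seen for 3 of the 10 members (Top1mt, Tfb2m and Ssbp1), against 21.2% of all genes. Ssbp1 is counted there only before rounding, since its pair 2 value was 0.00.

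**Figure D2:**
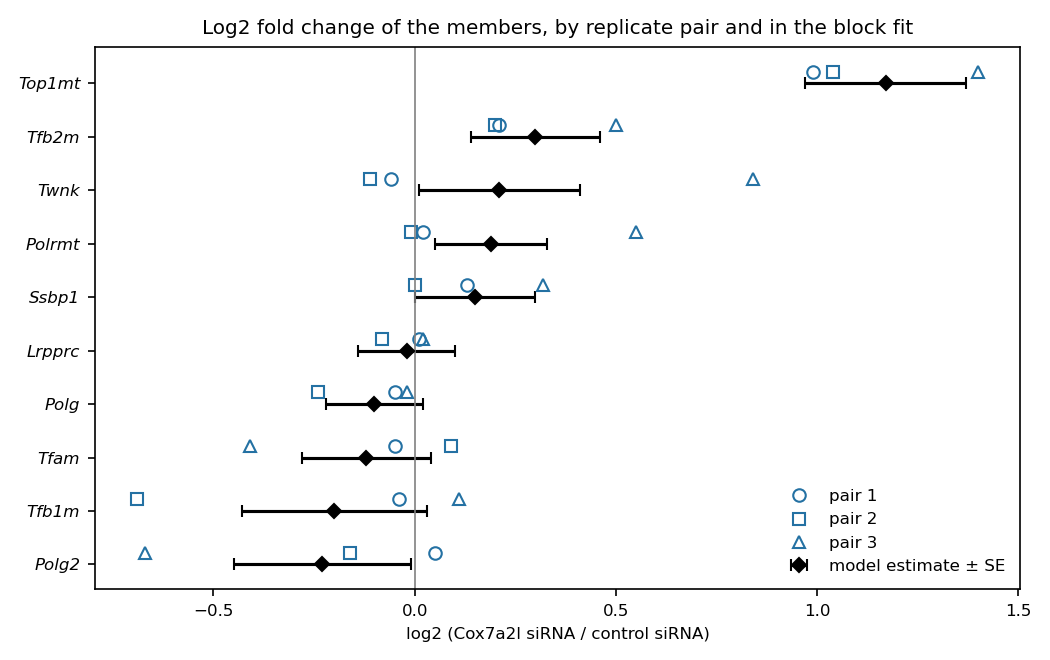
Log2 difference between Cox7a2l siRNA and control siRNA for each member, with the block-fit estimate and its standard error in black and the 3 replicate pairs as open blue symbols. Top1mt pairs lie at 0.99 to 1.40, and for Twnk and Polrmt the pair of replicate 3, at 0.84 and 0.55, lies apart from the other pairs near 0.

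Some members overlap a gene on the other strand. The libraries keep strand by the dUTP method, but no source used here gives the strand setting of the counting. Twnk overlaps Mrpl43, Polg overlaps Fanci, and Tfb1m overlaps Tiam2 and Cldn20, each on the opposite strand, and 12.1% of Twnk words and 7.26% of Polg words of 31 bases occur in that partner. Mrpl43, a mitochondrial ribosomal protein gene, was at 34.0 to 43.5 CPM in the control group and 36.4 to 60.2 CPM after Cox7a2l siRNA. Fanci, a DNA repair gene, was at 15 to 19.5 CPM against 4.83 to 16.3 CPM. Tiam2 had 1823 to 1998 estimated counts in the control group and 1041 to 2106 after Cox7a2l siRNA. Tfb1m itself had 105 to 136 and 63 to 109. Polg2 overlaps Milr1, Tfb2m overlaps Gm15480 and Lrpprc overlaps AC165360.1, also on the opposite strand. The part of these partners in the member values was not tested. Polrmt, Tfam and Ssbp1 overlap no other gene in GENCODE M21.

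Per length, Polg was the most abundant member in the control group and Top1mt the least. Deposited TPM in the control group were 29.0 ± 5.60 for Polg, 20.9 ± 5.13 for Polrmt, 17 ± 4.23 for Lrpprc, 15.5 ± 2.06 for Ssbp1 and 13.4 ± 4.76 for Tfam (SD, n = 3). Then followed Tfb2m at 6.91 ± 1.54, Twnk at 5.99 ± 1.85, Polg2 at 4.0 ± 0.923, Tfb1m at 3.88 ± 0.691 and Top1mt at 3.01 ± 0.589. Neighbours in that order overlapped in every case except Tfam and Tfb2m, whose 3 libraries each lay apart. After Cox7a2l siRNA, Top1mt at 4.98 ± 0.525 TPM stood above Tfb1m at 3.38 ± 1.37 and Polg2 at 3.12 ± 1.97, and its libraries did not overlap those of Tfb1m. The catalytic subunit Polg exceeded its accessory subunit Polg2 in each of the 6 libraries on this scale.

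**Figure D3:**
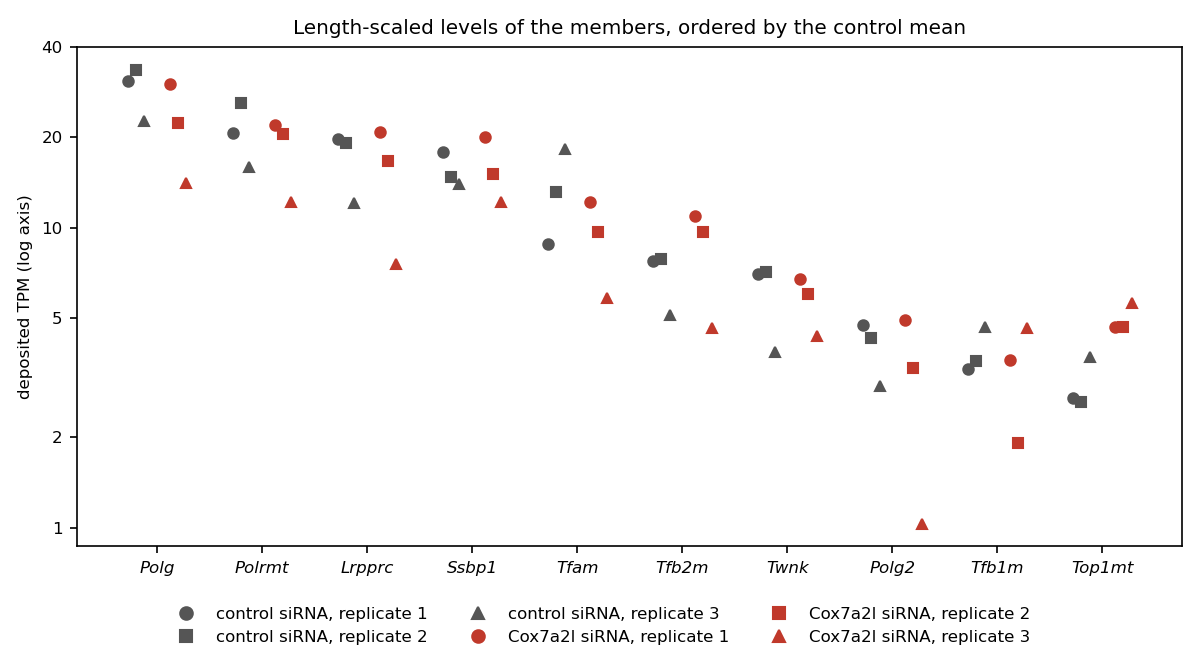
Deposited TPM of each member on a log axis, in the order of the control means, with 1 symbol per library. The first 5 genes lie above the last 5 in the control group, and after Cox7a2l siRNA the 3 Top1mt libraries, at 4.67 to 5.59 TPM, lie above those of Tfb1m.

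Transcript usage, as the authors' quantification assigned it, differed most between libraries for Tfam. Its mean transcript length relative to control replicate 1 was 1.00, 0.61 and 0.40 in the control group and 0.69, 0.80 and 0.60 after Cox7a2l siRNA, with 5 annotated transcripts. The highest library was 2.47 times the lowest, and 5.68% of 11997 genes with at least 20 counts in each library reached a ratio of 2. TPM of Tfam, at 8.82, 13.1 and 18.3 in the control group against 12.2, 9.64 and 5.82, ranked the control libraries in the reverse of their order by CPM, and the groups overlapped on both scales. Ratios for Tfb1m and Tfb2m were 1.76 and 1.59, and those of the other 7 members 1.04 to 1.27, beside a median of 1.20 over these genes.

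Replicate 3 differed from replicates 1 and 2 for most members, which is a difference of single libraries without a test. In the control group 8 of 10 members were lower in replicate 3, with a median log2 difference of -0.46 beside -0.01 over all genes, led by Twnk (-0.91), Lrpprc (-0.83) and Polrmt (-0.66). After Cox7a2l siRNA the median was -0.06, with Polg2 at -1.18 and Lrpprc at -0.78. Top1mt and Tfb1m were higher in replicate 3 of both groups, by 0.28 and 0.13 in the control group and 0.67 and 0.58 after Cox7a2l siRNA. Messages of mitochondrial DNA, transcribed by POLRMT, summed over 13 genes to 5905, 5938 and 27512 CPM in the control group and to 5896, 5846 and 17850 CPM after Cox7a2l siRNA. Their sum was thus nearly equal between the groups in pairs 1 and 2, where Top1mt differed by 0.99 and 1.04 on the log2 scale. In pair 3 the sum was lower after Cox7a2l siRNA, and Top1mt differed by 1.40. The sum was highest in the replicate 3 libraries, where Lrpprc was low in both groups. There Polrmt was at 51.6 CPM in the control group but at 75.8 CPM after Cox7a2l siRNA. Tfam was lowest there in both groups on CPM, but on TPM control replicate 3 was its highest control library. How these levels relate was not tested.

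**Figure D4:**
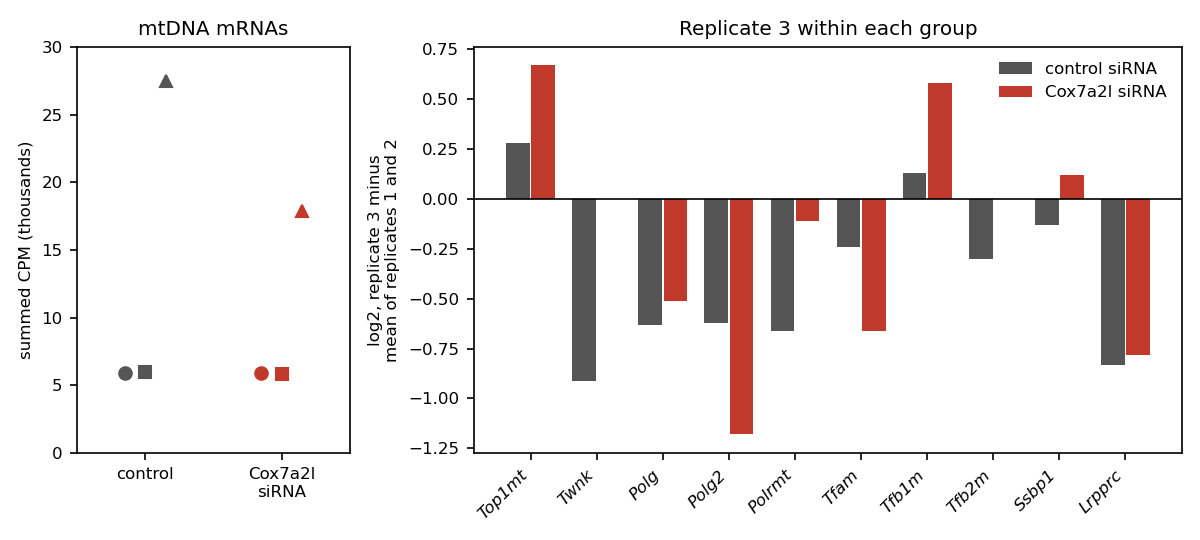
Left, summed CPM of 13 mitochondrial DNA messages in each library, with circles, squares and triangles for replicates 1, 2 and 3; right, log2 difference of replicate 3 from the mean of replicates 1 and 2 within each group, for each member. The sum is 27512 and 17850 CPM in the replicate 3 libraries and 5846 to 5938 CPM in the other 4, while most member bars point downwards in the control group.

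Of 5 other topoisomerase genes, all tested, 0 passed in the edgeR block fit, which 0.726% of all tested genes passed. Nothing is read from that count. At an unadjusted p under 0.05 there was 1, beside 17.7% of all tested genes. Top1, Top2b and Top3b were higher in all 3 pairs, as were 21.2% of all tested genes. Top2a and Top3a were lower in all 3, as were 20.8%. The groups did not overlap for Top3b (higher, as for 7.96% of all tested genes) and Top2a (lower). DESeq2 with the block called Top2a. Top1, the nuclear paralog, was at 73.1, 65.7 and 133 CPM in the control group and 74.5, 76.7 and 166 CPM after Cox7a2l siRNA (0.19 ± 0.12 on the log2 scale, edgeR adjusted p = 0.459). Top2a, which untangles chromosomes of dividing cells, was at 512, 513 and 409 CPM against 388, 368 and 183 CPM (-0.68 ± 0.16 on the log2 scale, edgeR adjusted p = 0.0712). Top3a, which also works in mitochondria, had -0.29, Top2b 0.21 and Top3b 0.28 (edgeR adjusted p = 0.332, 0.375 and 0.302). The phosphodiesterases Tdp1 and Tdp2, which free trapped topoisomerases from DNA, had -0.30 and 0.04 (edgeR adjusted p = 0.316 and 0.915).

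No tested gene beside Top1mt on chromosome 15 passed the threshold in the edgeR block fit, which 0.726% of all tested genes passed. Of the 4 nearest genes on each side in the RefSeq order, 5 were tested, too few to read anything from that count. Rhpn1, next to Top1mt on one side, was at 1.55 ± 0.343 CPM in the control group and 2.25 ± 0.780 CPM after Cox7a2l siRNA (SD, n = 3 each; 0.49 on the log2 scale, edgeR adjusted p = 0.555). On the other side the noncoding 2810039B14Rik had a log2 fold change of -0.40 (edgeR adjusted p = 0.623). Zfp41, Mafa and Zc3h3 had -0.49, 0.52 and 0.19 (edgeR adjusted p = 0.128, 0.430 and 0.514). The groups of Zfp41 did not overlap, at 41.5, 43.8 and 35.8 CPM against 34.0, 32.2 and 21.0 CPM.

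Around the members, 100 further genes of mitochondrial DNA and RNA were listed by function, of which 98 were tested. In the edgeR block fit 0 rose and 1 fell, with a median log2 fold change of -0.03. Beside this count, and those of the single lists below, stand the 0.726% of all tested genes that passed. Nothing is read from these counts. At an unadjusted p under 0.05 there were 9 of the 98, a smaller share than the 17.7% of all tested genes. The gene that fell was Hmga1, an architectural chromatin protein of the nucleus that has also been placed in mitochondria. It was at 91.1, 106 and 168 CPM in the control group and 63.4, 66.7 and 95.1 CPM after Cox7a2l siRNA, 0.627 times the control level (-0.67 ± 0.12 on the log2 scale, edgeR adjusted p = 0.0400). It was lower in all 3 pairs although the groups overlapped. Its call was lost without the block (-0.70, edgeR adjusted p = 0.770), without the replicate 3 pair (-0.60, 0.0685) and on library size alone (-0.72, 0.0599), where the log2 fold change stayed near its size. It was also lost in the limma fits of TPM (-1.02, -1.04 and -0.83, limma adjusted p = 0.384, 0.456 and 0.285). Without the block and with control replicate 3 also left out, its log2 fold change was -0.40 (edgeR adjusted p = 0.723). A separate row, Hmga1b, which is in none of the lists, was higher in level. It was at 389, 413 and 665 CPM against 217, 196 and 372 CPM (-0.92 on the log2 scale, edgeR adjusted p = 0.00798). Words shared by Hmga1 and Hmga1b, and the division of reads between them, were not examined.

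Of 18 genes of mitochondrial DNA replication and nucleoids, Hmga1 among them, 11 were lower in all 3 pairs, as were 20.8% of all tested genes, with a median log2 fold change of -0.14. At an unadjusted p under 0.05 there were 2 of the 18, beside 17.7% of all tested genes. Genes lower in all 3 pairs include Fen1, a flap nuclease that also serves nuclear replication, at -0.54 (edgeR adjusted p = 0.0951). Another is Mgme1, the mitochondrial exonuclease, at -0.35 (edgeR adjusted p = 0.472). Of 18 genes that supply nucleotides to mitochondria 16 were tested and 0 passed in the edgeR block fit, with 2 at an unadjusted p under 0.05 (17.7% of all tested genes) and a median of -0.02. Ak4, a mitochondrial adenylate kinase, had the largest difference, at 26.2, 23.7 and 11.9 CPM against 15.9, 11.3 and 2.36 CPM (log2 fold change -1.22, edgeR adjusted p = 0.0611). DESeq2 with the block called Ak4, Fen1, Hmga1 and Top2a, all lower, and no other gene of these lists. Dut, which clears dUTP, followed at -0.55 (edgeR adjusted p = 0.241). Abat and Cmpk2 were too low to be tested.

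Elongation and termination factors of mitochondrial transcription numbered 8, of which 0 passed in the edgeR block fit, with 1 at an unadjusted p under 0.05 and a median of 0.05. The largest differences were those of Mterf1b, at 1.08 and under 2 CPM in each library, and Mterf2, at 0.40 (edgeR adjusted p = 0.243 and 0.495). Of 38 genes of mitochondrial RNA processing, modification and turnover 0 passed in that fit, with 3 at an unadjusted p under 0.05 and a median of -0.02. Both counts stand beside 17.7% of all tested genes. Fastkd2, an RNA-binding protein of mitochondrial granules, had -0.49, and Ngrn, which supports the large mitochondrial ribosomal RNA, had 0.47 (edgeR adjusted p = 0.246 and 0.192). Slirp, the partner of LRPPRC, was at 12.7 ± 5.27 and 13.3 ± 4.06 CPM (SD, n = 3 each; 0.09 on the log2 scale, edgeR adjusted p = 0.825). Of 14 base repair genes 0 passed in that fit, none of them at an unadjusted p under 0.05, with a median of -0.02. The glycosylases Neil1 and Neil2 had 1.01 and -0.58 (edgeR adjusted p = 0.292 and 0.416), and Neil1 reached 19.1 CPM in Cox7a2l siRNA replicate 3 against 2.04 to 5.51 CPM in the other 5 libraries. Neil1 was called higher with no filter on low counts and without the replicate 2 pair.

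**Figure D5:**
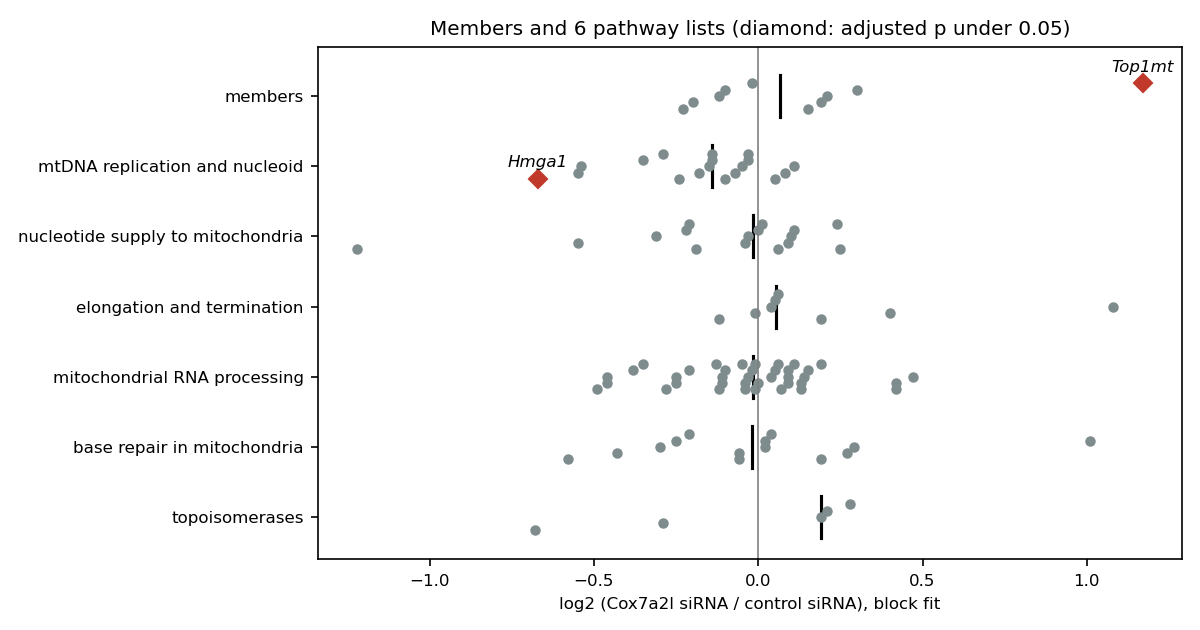
Log2 fold change in the block fit for the members and for the tested genes of 6 lists, 1 point per gene, with the median of each list as a black bar. Red diamonds are the genes with an edgeR adjusted p under 0.05, Hmga1 in the lists and Top1mt, which was chosen for this difference.

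Genes with the pattern most like that of Top1mt over the 6 libraries were Rnf150, Apbb2, Rras, Vps9d1 and Akap13, by Pearson's r of log2 CPM among 11017 named protein-coding genes with a mean of at least 2 CPM. Their r lay between 0.995 and 0.998 over 6 libraries that share 2 groups and the replicate 3 difference, and 59 genes had the same rank order as Top1mt. Each of these 5 differed less between the groups than Top1mt, with log2 fold changes from 0.32 (Akap13) to 0.54 (Rnf150). Rnf150 was at 60.2, 61.8 and 69.3 CPM in the control group and 82.9, 89.0 and 107 CPM after Cox7a2l siRNA. Among the members Tfb2m was the most alike, with r = 0.67, and Polg2 the least, with r = -0.63.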

How the data were processed

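RNA was measured in 6 libraries of C2C12 cells, 3 per siRNA. Per the submitters' processing notes, mm39 was the genome build, and the tools were Salmon 0.13.1, Trim Galore 0.6.4 and DESeq2 1.30.1. Gene-level estimated counts, unscaled for depth, were deposited. No source used here names the annotation release. The authors deposited TPM, scaled to length and to a common sum. The authors' deposited table also holds, per the file headers, scaled counts (a normalised signal), log2 fold changes, a test score and p-values. Symbols were joined for 97.6% of 52740 rows (GENCODE M21, GRCm38), and coordinates are given only for promoter sequences, on the RefSeq build GRCm38.p6, which is not the build of the files.

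Estimated counts were rounded and fitted with edgeR 4.0.16 in R 4.3.3 (TMM, filterByExpr, robust quasi-likelihood, Benjamini-Hochberg adjustment at 0.05) with the replicate number as block, and the script was tested on simulated data. Standard errors are the log2 fold change over the root of F. Pair values use log2 CPM with a prior count of 2, and replicate 3 differences add 0.5 CPM, both of which draw low genes towards 0. DESeq2 1.42.0, limma 3.58.1 on log2(TPM + 1) or log2(TPM + 0.1), other scalings and left-out libraries were alternatives.

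The labels number replicates 1 to 3 in both groups. Deviations from the group means correlated at 0.53, 0.45 and 0.67 between libraries of the same number, and replicates 1 and 2 also across numbers (0.44 and 0.43), so the pairing is clear only for replicate 3. Control replicates 1 and 2 differed by more than counting noise (median chi-square 0.835 against 0.455) and were kept as 2 samples.

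Members, gene lists, markers, promoter words and tests were chosen with earlier results of these data known. Genes named beside the members are the topoisomerases, the called genes of each list or its 2 largest differences (further list genes, such as Fen1, Mgme1 and Slirp, were named after their values were seen), the nearest neighbours of Top1mt, and the 5 genes most like it. Hmga1b was also named after its values were seen.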

Additional observations from a re-analysis of the deposited data

How the results depend on the processing

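With the block and TMM, 109 of all genes, 1 member (Top1mt) and 1 list gene (Hmga1) passed. Without the replicate block these were 2, 0 and 0, and when 1 library was also left out 0 to 2, 0 and 0. Replacing the block by a single term for replicate 3 gave 197, 1 and 1, and DESeq2 with the replicate block 495, 1 and 4. Library size scaling gave 58, 1 and 0, and no filter on low counts 1257, 1 and 7. limma on log2 TPM gave 2, 0 and 0 with a pseudocount of 1 and 3, 0 and 0 with 0.1, where the median of all genes was -0.18 and -0.24. On rescaled TPM, an alternative chosen after seeing the data, limma gave 2, 0 and 0. With the block and 1 pair left out the counts were 51 to 1210, 0 to 1 and 0 to 7, lowest without replicate 3.

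The log2 fold change of Top1mt was positive under all 18 alternatives. It was 1.03 to 1.24 with 1 pair left out, 0.58 and 0.72 on log2 TPM, 0.82 on rescaled TPM, and 0.92 without the block and without Cox7a2l siRNA replicate 3; the cause was not tested. Tfb2m was also positive throughout, at 0.20 or more. Each other member had both signs or reached 0.00 under some alternative. Spearman's rho in place of Pearson's r gave 59 genes tied at 1.00 with Top1mt. TPM of all members were higher after the largest row was left out. Depth limits the precision of the low members, among them Top1mt with 72 to 151 counts per library, Tfb1m with 63 to 136 and Polg2 with 31 to 157.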
